A study of Mus musculus with 12 samples.

Results

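The 37 genes described here carry out or accompany fatty acid oxidation and ketone body formation in the liver. They were chosen by gene symbol as a list of pathway genes: all 37 were found among the 55291 genes of the count table, and all 37 were among the 18305 genes with enough counts to test. RNA was sequenced from the livers of male C57BL/6 mice, an inbred strain, that entered at 6 weeks of age after 1 week of adaptation, with 3 libraries in each of 4 groups. The exercise groups, HFD+AE and HFD+RE, ate the high-fat diet D12492 for 8 weeks and then trained for 12 weeks or more. The HFD group ate the same diet without training, and the NC group ate a normal diet. AE and RE are not spelled out in the labels; in work of this kind the letters most often mean aerobic and resistance training. The libraries carry the numbers 1, 2 and 3 in HFD+AE, 3, 4 and 5 in HFD+RE, 1, 2 and 3 in HFD, and 2, 4 and 5 in NC, and values are listed in that order throughout. Whether each library stands for its own mouse is not said in the sources used here, and the p-values then reflect the spread among these samples, part or all of which may be technical.

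Fatty acids are activated to acyl-CoAs, carried into mitochondria as carnitine esters, and shortened there in repeated cycles of a dehydrogenase, a hydratase, a second dehydrogenase and a thiolase. The flavoprotein ETF passes electrons from the first step to the respiratory chain. Peroxisomes shorten very long and branched chains by a parallel route, thioesterases free the acids from CoA again, and liver mitochondria turn surplus acetyl-CoA into ketone bodies. In rodent liver many of these genes are known targets of PPARA, the fatty acid receptor that is active in fasting.

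Levels are given as CPM, the count of a gene relative to the size of its library after TMM scaling, which corrects for differences in composition. A gene is said to have risen or fallen where the Benjamini-Hochberg adjusted p of edgeR's quasi-likelihood test, over all 18305 genes, was below 0.05. Total counts were 55922691 to 65434486 in HFD+AE, 51178332 to 61089139 in HFD+RE, 44373214 to 60308552 in HFD and 47823607 to 77665729 in NC. The smallest count of any member in a library was 25 (Acot3 in NC 2), and no pair of libraries agreed within sampling noise. In bulk liver, fewer cells of a type and less RNA per cell cannot be told apart. The summed level of 10 hepatocyte markers was 113300, 107100 and 128700 CPM in HFD+AE, 114700, 124300 and 103800 CPM in HFD+RE, 82930, 92520 and 75060 CPM in HFD, and 115200, 126600 and 131100 CPM in NC, with all 10 markers above 0 in every library. This sum, of which Alb was the largest part, was thus lowest in the 3 HFD libraries. Alb had 49850, 60520 and 36700 CPM in HFD, and 79460, 95250 and 100200 CPM in NC. Not all 10 markers followed it: Apoa2, Ttr and Apoc3 had all 3 HFD values above all 3 of NC. The summed level of 11 lymphocyte markers was 6.91 to 10.7 CPM in HFD+AE, 13.0 to 16.7 CPM in HFD+RE, 12.4 to 56.6 CPM in HFD and 8.63 to 12.1 CPM in NC. That of 10 stellate cell markers was 280.3 to 298 CPM in HFD+AE, 248 to 354 CPM in HFD+RE, 292 to 401 CPM in HFD and 154 to 172 CPM in NC. That of 10 endothelial markers was 266.5 to 485 CPM in HFD+AE, 144 to 364 CPM in HFD+RE, 165 to 247.5 CPM in HFD and 356 to 429 CPM in NC. That of 10 macrophage markers was 302 to 422.5 CPM in HFD+AE, 76.4 to 402.5 CPM in HFD+RE, 141 to 280.4 CPM in HFD and 282 to 471 CPM in NC. Each gene of these 4 lists was above 0 in every library. In HFD relative to NC, 7 of 11 lymphocyte and 6 of 10 stellate cell markers rose. In the same comparison 4 of 10 hepatocyte, 4 of 10 endothelial and 1 of 10 macrophage markers fell. Over all genes 8.38% rose and 7.19% fell. Mitochondrial rRNA held 1.76% to 3.26% of the counts in HFD and 0.685% to 1.71% elsewhere. Each library's deviation from the gene means was ranked against gene length over the tested genes, and the rank correlation was 0.29, 0.29 and -0.03 in HFD+AE, 0.22, -0.29 and -0.31 in HFD+RE, -0.26, -0.15 and -0.29 in HFD, and 0.2, 0.21 and 0.08 in NC. The part of cell makeup, RNA quality and this length trend in the results below was not tested beyond the fit with the length trend removed.

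Together the 37 genes took 0.735% to 1.19% of the counts of a library. Their summed level was 12129, 11419 and 13672 CPM in HFD+AE, 9416, 11400 and 8664 CPM in HFD+RE, 8856, 11748 and 8172 CPM in HFD, and 7654, 8456 and 10884 CPM in NC. The sum thus overlapped between HFD and NC, and between HFD+AE and HFD. Acaa2, the thiolase of mitochondria, was the highest per length in NC at 485 ± 78.5 CPM per kb (SD, n = 3). Next came Acaa1b, a thiolase of peroxisomes, at 513 ± 35.3 CPM per kb in HFD, the highest there, and 245 ± 53.9 CPM per kb in NC. Abcd2, a transporter of peroxisomes, was among the lowest, at 5.74 ± 1.52 CPM per kb in HFD and 1.70 ± 0.471 CPM per kb in NC (SD, n = 3 each). The lengths are the table's, which join the exons of all transcripts, so levels per kb are understated for genes with long extra exons.

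**Figure D1:**
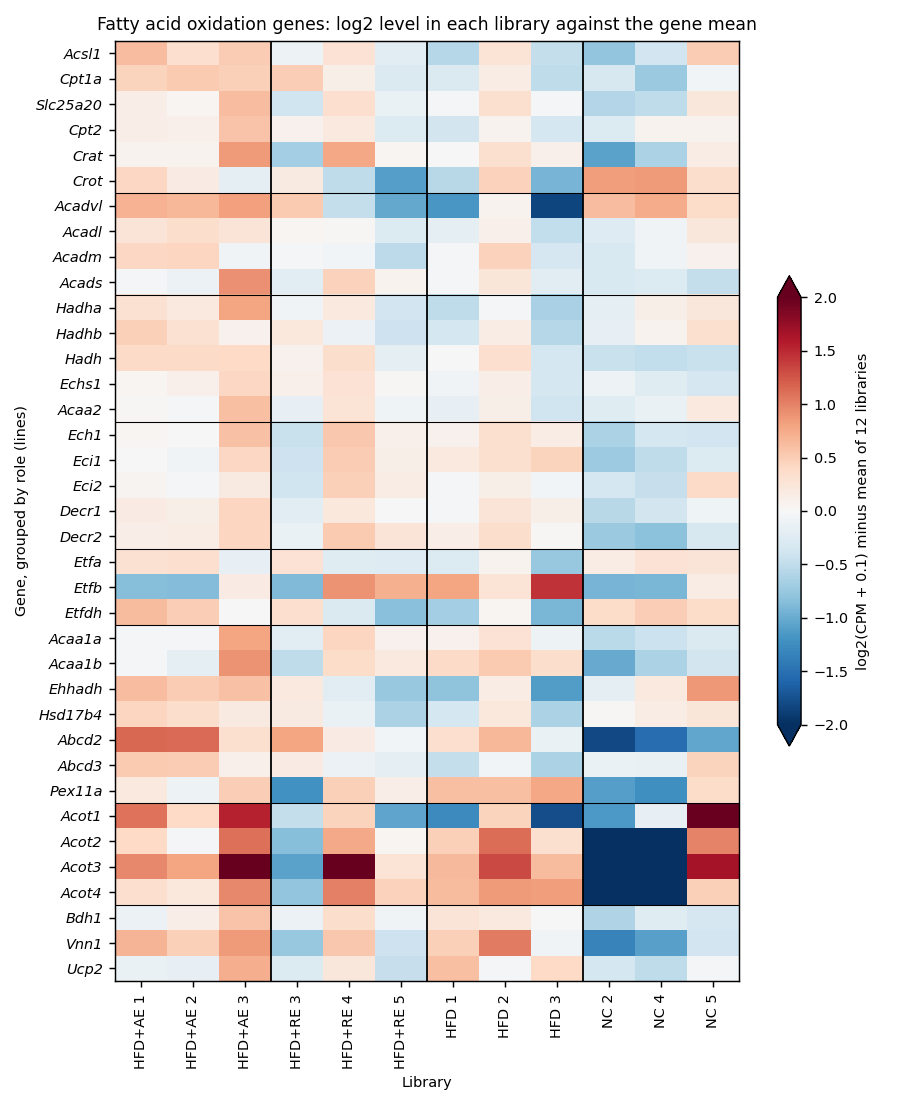
Level of each of the 37 genes (rows, in order of role, with lines between roles) in each of the 12 libraries (columns), as log2(CPM + 0.1) minus the mean of the gene over the libraries; the colour scale ends at -2 and 2. The thioesterases Acot2, Acot3 and Acot4 were low in NC 2 and NC 4 and high in NC 5, and Abcd2 was low in all 3 NC libraries.

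The comparison of HFD with NC asked what the high-fat diet did to these genes. Of the 37, 5 rose, 0 fell and 32 did not pass; over all genes 8.38% rose and 7.19% fell. The 5 were Abcd2, Vnn1, Acaa1b, Decr2 and Eci1. At an unadjusted p below 0.05 there were 18 of the 37, 13 higher and 5 lower, against 6352 of all 18305 genes. The median log2 change was 0.34 over the 37 genes and 0.01 over all genes. Without NC 2, HFD 2 or NC 4 the median over the 37 was 0.20, 0.21 or 0.22. The 5 genes work in peroxisomal oxidation (Abcd2, Acaa1b), in handling unsaturated acids (Eci1, Decr2) and, for Vnn1, in the turnover of a CoA precursor. By edgeR none of the 15 carnitine shuttle, acyl-CoA dehydrogenase and core mitochondrial genes was among them. Leaving out single libraries moved the count of 5 to 1 (HFD 1, NC 2 or NC 4 left out), 2 (HFD 3 left out) or 10 (NC 5 or HFD+RE 3 left out). The count over all genes, 2851 with all libraries, moved too. It was 488 without HFD 1, 941 without NC 2, 581 without NC 4, 411 without HFD 3, 2068 without NC 5 and 4462 without HFD+RE 3. The 10 members are 27.0% of the 37, against 11% of all genes called without NC 5 and 23.5% without HFD+RE 3. Without HFD 2, when 3554 of all genes were called, 2 rose (Abcd2 and Etfb) and 4 fell (Acadvl, Crot, Ehhadh and Etfdh).

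Abcd2, which carries very long-chain acyl-CoAs into peroxisomes, had the largest of these 5 changes. Abcd2 had 60.7, 59.85 and 33.9 CPM in HFD+AE, 47.3, 30.4 and 26.3 CPM in HFD+RE, 34.4, 43.0 and 24.9 CPM in HFD, and 7.71, 9.35 and 13.2 CPM in NC. All 9 libraries of the high-fat groups lay above all 3 of NC. Relative to NC, Abcd2 rose by 1.76 (SE 0.31, adjusted p = 0.0063) in HFD, by 2.35 (SE 0.31, adjusted p = 0.0044) in HFD+AE and by 1.78 (SE 0.31, adjusted p = 0.011) in HFD+RE. These comparisons share the NC libraries. In HFD vs NC the call held in 20 of 21 alternative fits, with an adjusted p of 4.5e-06 to 0.081. The gene lies on chromosome 15 (mm10, 91145871 to 91191799, minus strand), overlaps no other annotated gene, and shares 0.6% of its 50-base stretches with other genes.

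Acaa1b had 739.5, 667 and 1399 CPM in HFD+AE, 528.5, 965 and 859 CPM in HFD+RE, 978, 1085 and 955 CPM in HFD, and 374, 483 and 585.5 CPM in NC. Acaa1b encodes a thiolase that cuts the shortened chain in peroxisomes, and it rose in HFD by 1.06 (SE 0.31, adjusted p = 0.036) relative to NC. HFD lay above NC without overlap, while HFD+RE 3 lay within the NC range. Its call was lost in 9 of 21 alternative fits, among them those without HFD 1 (adjusted p = 0.097), HFD 2 (0.056), HFD 3 (0.11), NC 2 (0.12) or NC 4 (0.11), over a range of 0.0021 to 0.12. Of its 50-base stretches, 30.5% are also found in Acaa1a, its close paralog, so their counts may be split differently by other counting rules. Acaa1a averaged 224 ± 31.0 CPM (SD, n = 3) in HFD and 157 ± 14.1 CPM (SD, n = 3) in NC, without overlap (log2 change 0.51, SE 0.25, adjusted p = 0.16).

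The other peroxisomal genes differed in sign and did not pass. Ehhadh had 308, 285 and 299 CPM in HFD+AE, 228, 170.2 and 119 CPM in HFD+RE, 114, 221.5 and 91.6 CPM in HFD, and 174, 229.8 and 364 CPM in NC. Ehhadh encodes the bifunctional enzyme of the classical peroxisomal route, and its HFD values overlapped those of NC (log2 change -0.84, SE 0.35, adjusted p = 0.11). Without HFD 2 alone its change was -1.32 (adjusted p = 0.021, and 0.021 to 0.35 over all alternatives). Hsd17b4, the bifunctional enzyme for branched chains, stood at -0.35 (SE 0.25, adjusted p = 0.32). Abcd3, another acyl-CoA transporter of the peroxisome membrane, stood at -0.45 (SE 0.23, adjusted p = 0.19).

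Pex11a had 191, 155 and 234 CPM in HFD+AE, 71.5, 231 and 183 CPM in HFD+RE, 253, 252 and 285 CPM in HFD, and 77.6, 71.0 and 214 CPM in NC. Pex11a promotes the division of peroxisomes, and its 3 HFD values lay above all 3 of NC. The gap was small, since NC 5 stood near the HFD libraries while NC 2 and NC 4 stood far below, and the change did not pass at 1.12 (SE 0.43, adjusted p = 0.09).

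Vnn1 encodes vanin, a pantetheinase that is a known PPARA target in mouse liver. Vnn1 had 125, 108 and 140.3 CPM in HFD+AE, 46.2, 113 and 58.3 CPM in HFD+RE, 109, 161 and 74.5 CPM in HFD, and 30.8, 36.85 and 59.7 CPM in NC. HFD and HFD+AE did not overlap with NC, and HFD+RE 3 and 5 lay inside the NC range. Vnn1 rose in HFD by 1.43 (SE 0.36, adjusted p = 0.024) relative to NC. The call held in 16 of 21 alternative fits and was lost, among others, without HFD 1 (adjusted p = 0.07), HFD 2 (0.053), NC 2 (0.086) or NC 4 (0.092), with a range of 0.0018 to 0.092. In HFD+AE it stood at 1.55 (SE 0.36, adjusted p = 0.055) relative to NC, and in HFD+RE at 0.77 (SE 0.36, adjusted p = 0.2).

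Among the enzymes that prepare unsaturated fatty acids, 2 of 5 rose in HFD and all 5 had positive changes, with a median of 0.64. Over all genes 8.38% rose in the same comparison. Decr2 had 322.5, 324 and 397 CPM in HFD+AE, 268, 421 and 353 CPM in HFD+RE, 324, 376 and 300 CPM in HFD, and 175, 167 and 235 CPM in NC. Decr2, the dienoyl-CoA reductase of peroxisomes, rose by 0.79 (SE 0.21, adjusted p = 0.03) in HFD relative to NC. All 9 libraries of the high-fat groups lay above those of NC. It also rose in HFD+RE, by 0.85 (SE 0.22, adjusted p = 0.045), and stood at 0.86 (SE 0.22, adjusted p = 0.077) in HFD+AE. Eci1 had 139, 132 and 186 CPM in HFD+AE, 104, 198 and 151 CPM in HFD+RE, 159, 174 and 190 CPM in HFD, and 83.6, 98.0 and 114 CPM in NC. Eci1, an enoyl-CoA isomerase of mitochondria, rose by 0.82 (SE 0.24, adjusted p = 0.036) in HFD relative to NC, without overlap between these groups, while HFD+RE 3 lay inside the NC range.

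Decr2 and Eci1 were called in fewer alternative fits than Abcd2. Decr2 was called in 13 of 21 alternative fits of HFD vs NC (adjusted p 0.0053 to 0.12), and in 9 of 21 of HFD+RE vs NC. Eci1 was called in 12 of 21 (0.0037 to 0.14). Without HFD 1, 2 or 3 or NC 2 or 4, the adjusted p was 0.055 to 0.12 for Decr2 and 0.05 to 0.14 for Eci1. With the length trend of each library removed, the change in HFD was 0.61 (adjusted p = 0.063) for Decr2, 0.59 (0.078) for Eci1 and 0.83 (0.064) for Acaa1b. It was 1.83 (0.0025) for Abcd2 and 1.25 (0.034) for Vnn1 under the same removal.

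The 3 other genes of this role did not pass. Decr1 had 224, 215 and 268 CPM in HFD+AE, 169.7, 231 and 199.5 CPM in HFD+RE, 194, 237.5 and 215 CPM in HFD, and 135, 155 and 187.5 CPM in NC. Decr1, the dienoyl-CoA reductase of mitochondria, lay higher in HFD than in NC without overlap (log2 change 0.44, SE 0.19, adjusted p = 0.12). Ech1, a dienoyl-CoA isomerase, likewise did not overlap (0.64, SE 0.25, adjusted p = 0.089). Eci2, a second enoyl-CoA isomerase, stood at 0.10 (SE 0.25, adjusted p = 0.8).

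**Figure D2:**
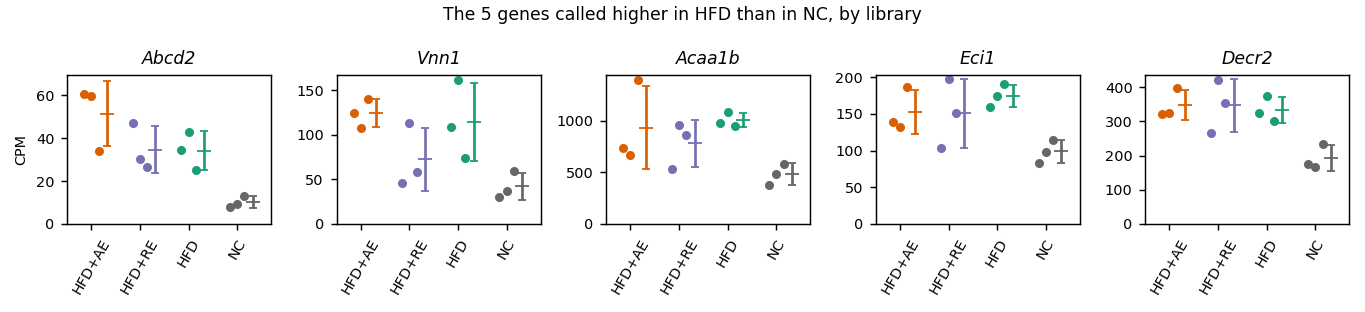
CPM of the 5 genes that rose in HFD relative to NC, in each library (points) with the mean ± SD of the 3 libraries (bars), for HFD+AE, HFD+RE, HFD and NC; each axis starts at 0. Abcd2 and Decr2 were above all NC values in every high-fat library, while Vnn1, Acaa1b and Eci1 each had HFD+RE 3 within the NC range.

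Genes of fatty acid activation and the carnitine shuttle made up 6 of the members, and 0 of 6 passed in HFD vs NC, where 3 changes were positive and 3 negative (median 0.03). Cpt1a had 749, 794 and 764 CPM in HFD+AE, 776, 595 and 452 CPM in HFD+RE, 452, 615 and 387 CPM in HFD, and 442, 331 and 533 CPM in NC. Cpt1a encodes the carnitine palmitoyltransferase that controls entry into mitochondria, and HFD overlapped NC (log2 change 0.15, SE 0.25, adjusted p = 0.68). Cpt2 had 161.5, 157 and 217 CPM in HFD+AE, 156, 169 and 121.5 CPM in HFD+RE, 114, 154 and 115 CPM in HFD, and 121, 154 and 154 CPM in NC. Cpt2, which reforms the acyl-CoA inside, also overlapped (log2 change -0.17, SE 0.21, adjusted p = 0.59).

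Crot had 517, 433 and 345 CPM in HFD+AE, 440, 273.5 and 182 CPM in HFD+RE, 266, 533 and 204 CPM in HFD, and 695, 700.3 and 497 CPM in NC. Crot transfers medium-chain acids from peroxisomes to carnitine. Its HFD 2 value lay within the NC range and HFD 1 and HFD 3 lay below it (log2 change -0.91, SE 0.37, adjusted p = 0.1). Acsl1, the main long-chain acyl-CoA synthetase of liver, stood at -0.09 (SE 0.32, adjusted p = 0.86), Slc25a20, the carnitine-acylcarnitine carrier, at 0.34 (SE 0.26, adjusted p = 0.37), and Crat, the carnitine acetyltransferase, at 0.57 (SE 0.37, adjusted p = 0.28).

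None of the 4 acyl-CoA dehydrogenases, which take the first step of each mitochondrial cycle, passed in HFD vs NC. Acadvl had 199, 196 and 217 CPM in HFD+AE, 177.5, 88.4 and 60.3 CPM in HFD+RE, 55.2, 129 and 34.6 CPM in HFD, and 189, 207 and 159.6 CPM in NC. Acadvl serves very long chains, and all 3 HFD values lay below NC (log2 change -1.34, SE 0.43, adjusted p = 0.052). It passed in 8 of 21 alternative fits, with an adjusted p of 0.0094 to 0.19, and DESeq2 gave -1.35 (0.012). Of its exon bases, 42.9% overlap Dvl2 on the other strand, and the strand setting of the counting is not given in the sources used here. Dvl2 itself stood at 3.52 to 5.42 CPM in HFD and 4.27 to 4.70 CPM in NC, a log2 change of -0.07 (adjusted p = 0.85).

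Acadm had 504, 508.5 and 360.5 CPM in HFD+AE, 371, 365 and 263 CPM in HFD+RE, 368, 518 and 299.9 CPM in HFD, and 307, 361 and 401 CPM in NC. Acadm, the medium-chain enzyme, had overlapping HFD and NC values (log2 change 0.15, SE 0.24, adjusted p = 0.68). Acads had 156, 145 and 297 CPM in HFD+AE, 136.5, 217 and 167 CPM in HFD+RE, 155, 188 and 135 CPM in HFD, and 128, 131 and 113 CPM in NC. Acads, for short chains, lay a little above NC in all HFD libraries (log2 change 0.36, SE 0.27, adjusted p = 0.36). Acadl had 234, 249 and 236 CPM in HFD+AE, 203, 200.4 and 162 CPM in HFD+RE, 174, 209.6 and 139.7 CPM in HFD, and 164.5, 187 and 231 CPM in NC. Acadl, the long-chain enzyme, overlapped between HFD and NC (log2 change -0.15, SE 0.20, adjusted p = 0.6).

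The later mitochondrial steps showed no call in HFD vs NC among 5 genes, with 2 positive and 3 negative changes. Hadha had 437, 406 and 616.5 CPM in HFD+AE, 339.5, 406 and 274 CPM in HFD+RE, 249.5, 345 and 226 CPM in HFD, and 311, 386 and 416.5 CPM in NC. Hadha is the alpha subunit of the trifunctional protein, which handles long chains, and its HFD and NC values overlapped (log2 change -0.44, SE 0.24, adjusted p = 0.2). Hadh had 472, 471 and 477 CPM in HFD+AE, 387, 462 and 318 CPM in HFD+RE, 362, 459.8 and 285 CPM in HFD, and 266, 258 and 267 CPM in NC. Hadh, the hydroxyacyl-CoA dehydrogenase of shorter chains, lay above NC in all HFD libraries (log2 change 0.49, SE 0.20, adjusted p = 0.11).

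Echs1 had 232, 241 and 299 CPM in HFD+AE, 241, 276 and 229 CPM in HFD+RE, 215, 246 and 177 CPM in HFD, and 209, 189 and 179 CPM in NC. Echs1, the short-chain hydratase, overlapped between the groups (log2 change 0.14, SE 0.18, adjusted p = 0.6). Hadhb, the beta subunit of the trifunctional protein, stood at -0.31 (SE 0.23, adjusted p = 0.35), and Acaa2 at -0.08 (SE 0.23, adjusted p = 0.82). Hadha and Hadhb are neighbours that are read away from each other. The stretch between them is shown because both genes start at its ends in the gene models of the counts, though not in those of RefSeq. It spans 85 bases of chr5:30155163-30155247 (GRCm38.p6, plus strand, sequence from RefSeq), 69.4% of them G or C, with Hadha to the left on the minus strand and Hadhb to the right on the plus strand.
Hadha-Hadhb: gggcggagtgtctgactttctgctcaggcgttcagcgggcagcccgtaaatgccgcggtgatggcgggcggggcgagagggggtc

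The 3 genes of electron transfer differed in sign, and none passed. Etfb had 8.645, 8.54 and 17.55 CPM in HFD+AE, 8.45, 29.4 and 25.7 CPM in HFD+RE, 27.2, 19.0 and 42.6 CPM in HFD, and 8.18, 8.27 and 17.4 CPM in NC. Etfb encodes the beta subunit of ETF, and its HFD values lay above those of NC (log2 change 1.39, SE 0.47, adjusted p = 0.06). Etfdh had 314, 283 and 200 CPM in HFD+AE, 256, 166 and 113 CPM in HFD+RE, 126.5, 207.5 and 108 CPM in HFD, and 259, 284 and 262 CPM in NC. Etfdh, which passes electrons on to ubiquinone, lay below NC in all HFD libraries (log2 change -0.87, SE 0.31, adjusted p = 0.069). The annotated gene Etfbl lies on the same strand and covers 58.2% of the exon bases of Etfb. How reads inside both genes were counted is not given in the sources used here, so the level of Etfb is uncertain. Etfbl had 0 CPM in 11 of 12 libraries.

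Etfa had 297, 304 and 214.5 CPM in HFD+AE, 293, 203 and 200.1 CPM in HFD+RE, 198, 252 and 141 CPM in HFD, and 266, 294 and 287 CPM in NC. Etfa, the alpha subunit, lay below NC in all 3 HFD libraries (log2 change -0.52, SE 0.24, adjusted p = 0.14). The subunits of 1 complex thus stood on opposite sides of 0 in HFD vs NC, with Etfb as the shortest of the 37 genes at 1164 bases of exons.

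The 4 thioesterase genes Acot1, Acot2, Acot3 and Acot4 lie close together on chromosome 12 and include the members with the widest spread within NC. Acot3 had 44.1, 39.0 and 98.05 CPM in HFD+AE, 10.7, 95.2 and 27.3 CPM in HFD+RE, 35.5, 56.9 and 35.2 CPM in HFD, and 0.465, 1.28 and 71.7 CPM in NC. Acot3 encodes a thioesterase of peroxisomes, and its level in NC 5 was 82 times the mean of NC 2 and NC 4. Acot4 had 165.5, 153 and 256.5 CPM in HFD+AE, 75.8, 265 and 181 CPM in HFD+RE, 203.5, 239 and 235 CPM in HFD, and 19.5, 28.3 and 182 CPM in NC. Acot4, another peroxisomal thioesterase, was 7.63 times as high in NC 5 as in the mean of NC 2 and NC 4. Acot2 had 11.4, 8.59 and 18.8 CPM in HFD+AE, 4.78, 14.7 and 8.90 CPM in HFD+RE, 12.15, 19.0 and 10.9 CPM in HFD, and 1.67, 2.07 and 17.4 CPM in NC. Acot2, the mitochondrial form, was 9.31 times as high. NC 5 thus stood within the range of the high-fat libraries for all 3 genes, and NC 2 and NC 4 stood below every high-fat library.

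Acot1 had 50.9, 31.5 and 70.0 CPM in HFD+AE, 17.1, 32.5 and 11.5 CPM in HFD+RE, 9.87, 32.65 and 6.91 CPM in HFD, and 10.7, 21.45 and 94.6 CPM in NC. Acot1 is the cytosolic form, and here NC 5 was the highest of all 12 libraries, 5.89 times the mean of NC 2 and NC 4. The HFD values overlapped those of NC. With all libraries the changes in HFD vs NC were -1.36 (adjusted p = 0.2) for Acot1, 0.98 (adjusted p = 0.34) for Acot2, 0.79 (adjusted p = 0.68) for Acot3 and 1.56 (adjusted p = 0.12) for Acot4, and 0 of 4 passed. Without NC 5 they were 5.62 (adjusted p = 0.0082) for Acot3, 3.24 (0.0045) for Acot4, 2.90 (0.0083) for Acot2 and 1.82 (0.019) for Pex11a. Acot1 then stood at 0.03 (0.98). Over all alternatives the adjusted p ran from 0.0083 to 0.64 for Acot2, from 0.0082 to 0.92 for Acot3, from 0.0045 to 0.33 for Acot4 and from 0.019 to 0.26 for Pex11a.

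In NC 5, 7 of the 37 genes were more than 2-fold above the mean of NC 2 and NC 4, against 3.17% of 12721 genes with a mean above 1 CPM. Of 9 further PPARA targets that could be tested, 7 were more than 2-fold above that mean, with ratios of 1.15 (Angptl4) to 6.87 (Cyp4a14). Of this list Cyp4a14, a fatty acid hydroxylase with close paralogs, stood at 765 CPM in NC 5 and at 47.9 and 175 CPM in NC 2 and NC 4. Pdk4, a kinase that spares glucose in fasting, stood at 10.3 CPM in NC 5 and at 4.78 and 4.92 CPM in NC 2 and NC 4. The labels give no feeding state or batch for the libraries, and whether either moved with NC 5 was not tested. Within the gene family, 24.5% of the 50-base stretches of Acot2 are also found in Acot1, and 13.6% of those of Acot1 in Acot2, so the split of reads between this pair is uncertain.

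**Figure D3:**
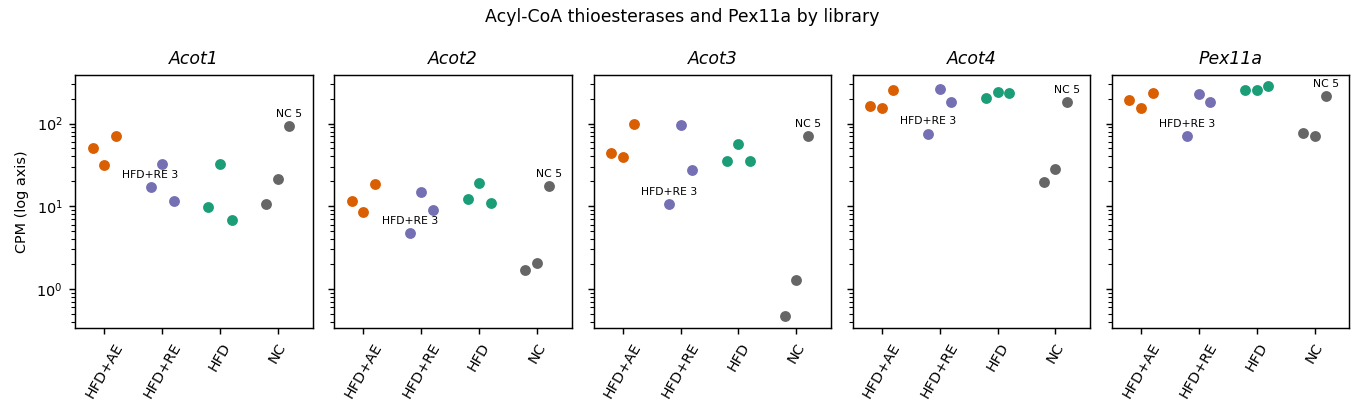
CPM on a log axis of Acot1, Acot2, Acot3, Acot4 and Pex11a in each library of HFD+AE, HFD+RE, HFD and NC (points), with NC 5 and HFD+RE 3 named. NC 5 lay far above NC 2 and NC 4 for each of the 5 genes, and HFD+RE 3 was the lowest high-fat library for all of them but Acot1.

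The 100 bases upstream of these 4 genes are shown because the genes lie close together and all 4 were high in the same NC library. They come from RefSeq promoters on GRCm38.p6 (plus strand), and end at the base before the annotated start. Capitals mark a match to a direct repeat of the half-site AGGTCA with 1 base between its copies, the kind of element that PPARA and its partner RXRA bind. Both strands were searched, with up to 2 mismatches over 12 letters. The positions are chr12:84009390-84009489 for Acot1, chr12:83987761-83987860 for Acot2, chr12:84052044-84052143 for Acot3 and chr12:84038279-84038378 for Acot4.
Acot1: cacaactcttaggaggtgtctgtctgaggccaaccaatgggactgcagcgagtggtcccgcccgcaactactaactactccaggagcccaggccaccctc
Acot2: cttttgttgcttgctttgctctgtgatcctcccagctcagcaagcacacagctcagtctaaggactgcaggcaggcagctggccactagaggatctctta
Acot3: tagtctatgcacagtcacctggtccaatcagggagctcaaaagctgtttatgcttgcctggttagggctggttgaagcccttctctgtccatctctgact
Acot4: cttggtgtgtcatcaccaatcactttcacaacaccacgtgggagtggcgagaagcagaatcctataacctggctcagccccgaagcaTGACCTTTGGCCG
In windows of 300 bases around the start, the 4 genes were 23.3% (Acot1 and Acot3) to 30.0% (Acot2 and Acot3) identical base by base without gaps. With gaps allowed, 56.5% (Acot1 and Acot2) to 62.1% (Acot1 and Acot3) of the aligned bases were identical. Promoters of other genes were not compared in this way, so neither range has a background.

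RefSeq promoters were found for 31 of the 37 genes, in 35 windows of 250 bases before to 50 after the start. The repeat with up to 2 mismatches was in 4 of the 35 (11.4%), against 3.9% of 32851 windows of all genes. It was in Acot4 on the strand opposite to the gene (bases -13 to -1, where 1 is the first transcribed base and -1 the base before it), in Etfa also on the opposite strand (-77 to -65), and in Echs1 (-83 to -71) and Slc25a20 (7 to 19) on the strand of the gene. The 13 bases of each match, as they read on the strand of the gene, are these.
Acot4: TGACCTTTGGCCG
Etfa: TTACCTTTGCCCT
Echs1: AGGTCACGGGTCC
Slc25a20: AGGTGAAAGGTCG
The single half-site was in 7 of 35 windows (20.0%) and in 16.3% of all windows. A match is a string of letters, not a measured site.  Promoters of Abcd2 and Vnn1 were not analysed here.

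Bdh1 and Ucp2 complete the list. Bdh1 had 236, 279.5 and 377.5 CPM in HFD+AE, 236, 327 and 243 CPM in HFD+RE, 304, 294 and 254 CPM in HFD, and 168, 216 and 202 CPM in NC. Bdh1 makes hydroxybutyrate, the main ketone body, from acetoacetate, and its 3 HFD values lay above those of NC (log2 change 0.54, SE 0.21, adjusted p = 0.098). Ucp2 had 25.8, 25.1 and 46.6 CPM in HFD+AE, 23.2, 33.2 and 20.5 CPM in HFD+RE, 42.8, 27.85 and 37.1 CPM in HFD, and 22.05, 19.75 and 27.8 CPM in NC. Ucp2, a carrier of the inner mitochondrial membrane, lay above the NC range in HFD 1 and 3 and just above NC 5 in HFD 2 (log2 change 0.63, SE 0.27, adjusted p = 0.12).

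The comparison of HFD+AE with HFD asked what AE training did on the same diet. By edgeR 0 of the 37 genes passed, against 0.0164% of all genes that rose and 0.0328% that fell, and the smallest adjusted p of a member was 0.073. At an unadjusted p below 0.05 there were 13 of the 37, 12 higher and 1 lower, against 4826 of all 18305 genes. DESeq2 called 5 of the 37 (Hadha, Acadvl, Abcd3 and Ehhadh higher, Etfb lower) and 2088 of all genes. The median log2 change was 0.33 over the 37 genes and 0.00 over all genes, and 30 of the 37 changes were positive. The median over the 37 was 0.12 without HFD+AE 3 and 0.20 without HFD 3.

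The smallest p-values in HFD+AE vs HFD were those of Hadha, Acadvl, Abcd3 and Ehhadh. Hadha averaged 486.5 ± 114 CPM (SD, n = 3) in HFD+AE and 273 ± 63.0 CPM (SD, n = 3) in HFD, without overlap (log2 change 0.83, SE 0.24, adjusted p = 0.073). Acadvl averaged 204 ± 11.2 CPM (SD, n = 3) in HFD+AE and 73.0 ± 49.8 CPM (SD, n = 3) in HFD, also without overlap (log2 change 1.48, SE 0.44, adjusted p = 0.076). Both were higher in each HFD+AE library than in each HFD library. Ehhadh likewise did not overlap, at 297 ± 11.9 CPM (SD, n = 3) in HFD+AE and 142.5 ± 69.3 CPM (SD, n = 3) in HFD (log2 change 1.06, SE 0.35, adjusted p = 0.093).

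Abcd3 had 675, 669.8 and 503 CPM in HFD+AE, 528, 431 and 411 CPM in HFD+RE, 337.5, 453 and 301.5 CPM in HFD, and 426, 422 and 642 CPM in NC. Abcd3 did not overlap between HFD+AE and HFD (log2 change 0.76, SE 0.23, adjusted p = 0.083). Cpt1a averaged 769 ± 22.8 CPM (SD, n = 3) in HFD+AE and 484 ± 117 CPM (SD, n = 3) in HFD, without overlap (log2 change 0.67, SE 0.25, adjusted p = 0.12). The 3 HFD+AE values of Cpt1a lay within 749 to 794 CPM. Acsl1 stood at 0.69 (SE 0.32, adjusted p = 0.19), Cpt2 at 0.49 (SE 0.21, adjusted p = 0.16) and Acadl at 0.46 (SE 0.20, adjusted p = 0.16), and all 6 shuttle genes had positive changes.

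Etfb was the member with a negative change at an unadjusted p below 0.05. It averaged 11.6 ± 5.17 CPM (SD, n = 3) in HFD+AE and 29.6 ± 12.0 CPM (SD, n = 3) in HFD (log2 change -1.36, SE 0.47, adjusted p = 0.1). Etfdh averaged 266 ± 59.0 CPM (SD, n = 3) in HFD+AE and 147 ± 53.0 CPM (SD, n = 3) in HFD, with HFD+AE 3 below HFD 2 (log2 change 0.85, SE 0.31, adjusted p = 0.11). Of the 5 genes that rose in HFD relative to NC, Abcd2 stood at 0.59 (SE 0.30, adjusted p = 0.22), Vnn1 at 0.12 (SE 0.35, adjusted p = 0.85), Acaa1b at -0.11 (SE 0.30, adjusted p = 0.85), Eci1 at -0.20 (SE 0.23, adjusted p = 0.62) and Decr2 at 0.06 (SE 0.21, adjusted p = 0.87) in HFD+AE relative to HFD. This comparison shares the HFD libraries with HFD vs NC.

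The count of calls in HFD+AE vs HFD rested on single libraries. Without HFD 2 it was 5 of 37 (Hadha, Acadvl, Abcd3, Ehhadh and Etfdh, all higher), and 1691 of all genes were called. Without HFD+RE 3, a library outside the comparison, it was 3 (Hadha and Acadvl higher, Etfb lower). These are 8.11% of the 37, against 10.2% of all genes (1930) called in that fit. With HFD 2 left out, the changes were 1.03 (adjusted p = 0.034) for Hadha, 2.19 (0.021) for Acadvl and 1.53 (0.028) for Ehhadh. Over all alternatives the adjusted p ran from 0.018 to 0.31 for Hadha, from 0.012 to 0.31 for Acadvl and from 0.027 to 0.35 for Ehhadh. HFD 2 had 2.88 times the Acadvl level and 2.15 times the Ehhadh level of the mean of HFD 1 and HFD 3. HFD 2 also had the least mitochondrial rRNA of the 3 HFD libraries, at 1.76% of counts. Its summed hepatocyte markers, of which Alb was the largest part, were the highest of the 3, at 92520 CPM. The part of these measures in the result was not tested.

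**Figure D4:**
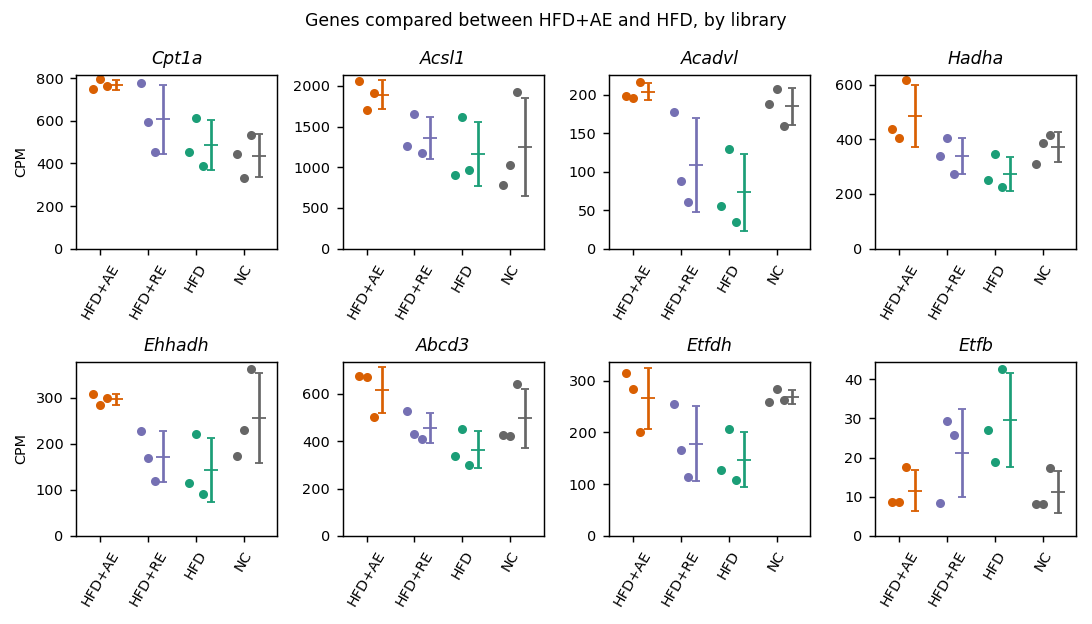
CPM of Cpt1a, Acsl1, Acadvl, Hadha, Ehhadh, Abcd3, Etfdh and Etfb in each library (points) with the mean ± SD of the 3 libraries (bars), for HFD+AE, HFD+RE, HFD and NC; each axis starts at 0. The HFD+AE values lay above the HFD values without overlap for Cpt1a, Acsl1, Acadvl, Hadha, Ehhadh and Abcd3, and below them for Etfb. The genes shown are a selection of the members, and how many of all genes lay without overlap was not counted. None of the 8 passed by edgeR.

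The comparison of HFD+RE with HFD gave 0 calls among the 37 genes by edgeR and 0 by DESeq2, which called 185 of all genes. Over all genes 0.00546% rose and 0.00546% fell. At an unadjusted p below 0.05 there were 0 of the 37, against 1605 of all genes, and the smallest adjusted p was 0.62. The median log2 change was 0.06, and the changes ran from -0.70 (Pex11a) to 0.58 (Acadvl). Pex11a averaged 162 ± 81.8 CPM (SD, n = 3) in HFD+RE and 263 ± 18.6 CPM (SD, n = 3) in HFD without overlap (log2 change -0.70, SE 0.43, adjusted p = 0.67). Vnn1 averaged 72.5 ± 35.6 CPM (SD, n = 3) in HFD+RE and 115 ± 43.6 CPM (SD, n = 3) in HFD (log2 change -0.66, SE 0.35, adjusted p = 0.62). The HFD+RE libraries differed among themselves: HFD+RE 3 had 0.175 times the Acot3 level, 0.307 times the Etfb level and 2.39 times the Acadvl level of the mean of HFD+RE 4 and 5. Only 1 of the 37 was more than 2-fold above that mean, against 7% of 12721 genes with a mean above 1 CPM. Another 6 were more than 2-fold below that mean, a share not counted over all genes, and 13 of the 37 lay above it. The median ratio was 0.83 over the 37 and 1.02 over those 12721 genes.

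The 2 forms of training were compared directly in HFD+RE vs HFD+AE. By edgeR 0 of the 37 genes passed, as did 0 of all genes, so that 0% rose and 0% fell. At an unadjusted p below 0.05 there were 3 of the 37 (Ehhadh, Vnn1 and Hadha, all lower in HFD+RE), against 1468 of all genes, and DESeq2 called 0 of the 37 and 24 of all genes. Of the 37 changes, 35 were negative, with a median of -0.32 against 0.01 over all genes. That median was -0.14 without HFD+AE 3, and -0.03 without HFD+AE 3 and HFD+RE 3 together. Ehhadh averaged 172 ± 54.6 CPM (SD, n = 3) in HFD+RE and 297 ± 11.9 CPM (SD, n = 3) in HFD+AE, without overlap (log2 change -0.79, SE 0.35, adjusted p = 0.61). Acadvl stood at -0.91 (SE 0.43, adjusted p = 0.61) and Cpt1a at -0.34 (SE 0.25, adjusted p = 0.65) in HFD+RE relative to HFD+AE. Without HFD+AE 3 and HFD+RE 3 together, 3 of the 37 passed: Abcd2 at -1.09 (adjusted p = 0.016), Etfdh at -1.10 (0.02) and Etfb at 1.68 (0.024), while 4170 of all genes were called. Over all alternatives the adjusted p ran from 0.016 to 1 for Abcd2, from 0.02 to 1 for Etfdh and from 0.024 to 1 for Etfb.

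**Figure D5:**
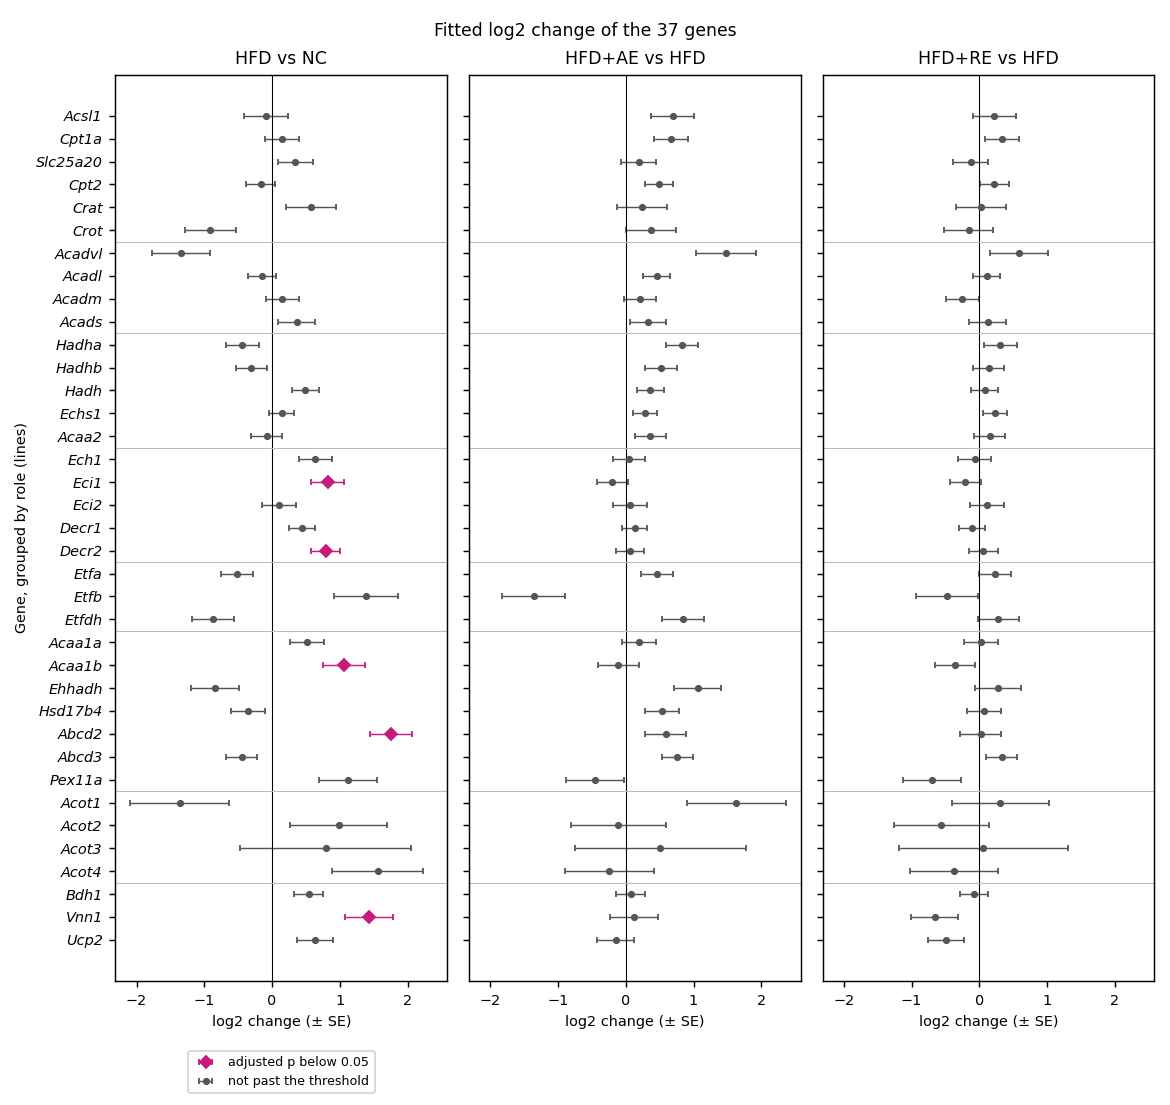
Fitted log2 change with its SE (bars) of each of the 37 genes in HFD vs NC, HFD+AE vs HFD and HFD+RE vs HFD, in order of role; diamonds mark an adjusted p below 0.05. The 5 diamonds are all in HFD vs NC, and the comparisons share the HFD libraries, so a high or low HFD value moves the panels in opposite directions.

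Set against NC, few of the 37 genes passed in the trained groups. In HFD+AE vs NC, 1 of the 37 rose (Abcd2) and 0 fell, where 0.901% of all genes rose and 0.481% fell, and 14 of the 37 were higher at an unadjusted p below 0.05, against 2566 of all genes on either side. DESeq2 called 5, adding Vnn1, Hadh, Decr2 and Cpt1a, and 791 of all genes. By edgeR 5 of the 37 passed without NC 5, 3 without HFD+RE 3 and 2 without HFD+RE 4, where 226, 373 and 219 of all genes did, against 253 with all libraries. Hadh averaged 473 ± 3.32 CPM (SD, n = 3) in HFD+AE and 263.5 ± 5.17 CPM (SD, n = 3) in NC without overlap (log2 change 0.84, SE 0.21, adjusted p = 0.067). Cpt1a averaged 769 ± 22.8 CPM (SD, n = 3) in HFD+AE and 435 ± 101 CPM (SD, n = 3) in NC without overlap (log2 change 0.82, SE 0.25, adjusted p = 0.14). In HFD+RE vs NC, 2 rose (Abcd2 and Decr2) and 0 fell, where 2.67% of all genes rose and 1.28% fell, and 9 of the 37 had an unadjusted p below 0.05 (8 higher, 1 lower), against 4476 of all genes. The count of 2 called was 9 without HFD+RE 3, 5 without NC 5, 0 without NC 4, and 1 without HFD 1 or 3, HFD+AE 1 or 2, HFD+RE 4 or 5, or NC 2. Over all genes 724 were called with all libraries, 3983 (21.0%) without HFD+RE 3, 456 (2.43%) without NC 5, 143 without NC 4, and 112 to 577 without 1 of the others. Crot had the largest negative change there, at 298 ± 131 CPM (SD, n = 3) in HFD+RE and 631 ± 116 CPM (SD, n = 3) in NC (log2 change -1.08, SE 0.37, adjusted p = 0.11).

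Further genes of the same pathways were read from lists chosen with earlier results of these data known, and 65 of their 68 genes could be tested. In HFD vs NC 8 rose, 5 fell and 52 did not pass, with a median of -0.07. Over all genes 8.38% rose and 7.19% fell. Those that rose included Fgf21, a fasting hormone of the liver, by 2.23 (adjusted p = 0.015), Hsd17b10, a dehydrogenase of branched-chain breakdown, by 1.14 (adjusted p = 0.018), Acot13 by 1.16 (adjusted p = 0.01), Acot6 by 1.33 (adjusted p = 0.037), Mcee by 0.92 (adjusted p = 0.026), Acad12 by 0.71 (adjusted p = 0.039) and Ppara itself by 0.55 (adjusted p = 0.049). Those that fell were Lpin1, a phosphatase that also acts as a coactivator of PPARA, at -1.77 (adjusted p = 0.019), the acyl-CoA synthetases Acsl4 at -1.49 (adjusted p = 0.033) and Acsl5 at -0.66 (adjusted p = 0.029), Acadsb at -0.94 (adjusted p = 0.04), and Slc16a1, a carrier of lactate and ketone bodies, at -0.91 (adjusted p = 0.015).

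Ppara had 263, 244 and 238.5 CPM in HFD+AE, 236, 187 and 162 CPM in HFD+RE, 174, 203 and 199.9 CPM in HFD, and 129.5, 127 and 137 CPM in NC. Ppara lay below all high-fat libraries in NC. In HFD+AE vs NC 2 of the 65 rose, among them Ppara by 0.92 (adjusted p = 0.025), where 0.901% of all genes rose. In HFD+RE vs NC 2 rose, among them Acot13 by 0.94 (adjusted p = 0.038). Another 2 fell there, Pdk4 at -1.90 (adjusted p = 0.017) and Slc16a1 at -1.10 (adjusted p = 0.014). Over all genes 2.67% rose and 1.28% fell in HFD+RE vs NC. By edgeR 0 of the 65 passed in HFD+AE vs HFD, HFD+RE vs HFD or HFD+RE vs HFD+AE, where 9, 2 and 0 of all genes did.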

How the data were processed

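The values are read counts per gene in 12 liver libraries, which the authors deposited unnormalized in a single table. Per the submitters' processing notes, the tools were fastp, HISAT2 2.2.1, featureCounts 2.0.6 and DESeq2 1.40.1, on mm10. Strand setting, annotation release and the treatment of reads that fit several genes were not given in the sources used here, so overlapping genes and close paralogs are uncertain.

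Counts were fitted with edgeR 4.0.16 in R 4.3.3 (robust quasi-likelihood F-test, TMM scaling, low-count filter by group). A single model held all 12 libraries and 4 group means, and 6 comparisons were read from it. Adjustment was by Benjamini-Hochberg over 18305 genes. Alternatives were DESeq2 1.42.0, other size factors, no filter, 2 groups only, a replicate block, libraries left out, a loess trend on gene length removed, and a fold above 1.2 required. The members, the lists and the naming rule were chosen with earlier results of these data known. The rule accounts for each of the 37 genes, and gives all 12 values for called genes, up to 3 genes per role by smallest p, and Cpt1a, Acadm, Acaa1b, Ehhadh, Acot1, Vnn1 and Bdh1. The library values of Pex11a, 1 further Acot gene, Cyp4a14, Pdk4 and Ppara were chosen after they were seen. Gene coordinates are the table's, and all 37 match GENCODE M21. Promoter sequences are RefSeq's (GRCm38.p6), for the genes whose window was used.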

Additional observations from a re-analysis of the deposited data

How the results depend on the processing

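The number of the 37 genes called in HFD vs NC was 5, or 13.5%, against 15.6% of all genes. It was 9 with DESeq2 (4161 of all genes called), 11 with only the 2 groups fitted (29.7%, against 28.7% of all genes), 3 with the length trend removed (8.11% against 14.4%), 14 without HFD+AE 3 and HFD+RE 3 together (37.8% against 33.1%), 2 with a fold above 1.2 required (5.41% against 8.29%), and 1 to 10 with 1 library left out (2.21% to 23.5% of all genes). In HFD+AE vs HFD it was 0, against 1 without the filter, 5 with DESeq2, 5 without HFD+AE 3 and HFD+RE 3, and 0 to 5 with 1 library left out, where 953, 2088, 4253 and 0 to 1930 of all genes were called, against 9 with all libraries and the filter. In HFD+RE vs HFD+AE it was 0, against 3 without those 2 libraries, when 4170 of all genes were called. In HFD+AE vs NC it was 1, against 5 with DESeq2, 2 with the length trend removed, and 1 to 5 with 1 library left out, where 791, 280 and 44 to 373 of all genes were called, against 253. In HFD+RE vs NC it was 2, against 1 with only 2 groups, 1 with the length trend removed, 11 without HFD+AE 3 and HFD+RE 3, 1 with the fold required, and 0 to 9 with 1 library left out, where 110, 767, 5989, 372 and 112 to 3983 of all genes were called, against 724. In HFD+RE vs HFD it was 0 in every alternative run. Leaving out NC 5 and HFD 2 together, chosen after the data were seen, gave 12 in HFD vs NC, 6 in HFD+AE vs HFD, 5 in HFD+AE vs NC and 5 in HFD+RE vs NC, where 2880, 1647, 216 and 398 of all genes were called. The causes were not tested. No change of a member that passed in the main or an alternative fit had the opposite sign in the other. With the replicate block, the counts were 1 in HFD vs NC, 0 in HFD+AE vs NC and 0 in HFD+RE vs NC, where 325, 1 and 15 of all genes were called. The replicate numbers share only a name here, since same-numbered libraries of different groups had deviations that correlated at -0.5 to 0.16. Among the members depth was lowest for Acot3, with 25 and 59 reads in NC 2 and NC 4.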
